A study of Mus musculus with 4 samples.

Results

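The 10 apolipoprotein genes Apoa1, Apoa2, Apoa4, Apoa5, Apob, Apoc1, Apoc2, Apoc3, Apoe and Apom were examined among the 25655 genes counted in mouse liver. They were taken by name, each name matched 1 gene, and the family was chosen by the measured levels of Apoa4, which had already been seen to be lower in the ADAR2 knockout livers. The contrast between the genotypes therefore selected the genes, and its values for the 10 genes are given as a description without a test. Liver RNA came from male mice on a B6129S background. The HFD-WT group was ADAR2+/+/GluR-B R/R, the HFD-KO group was ADAR2-/-/GluR-B R/R, and each had 2 libraries. Both groups received the high-fat diet (HFD) for 12 weeks from 5 weeks of age. Both also carried the GluR-B R/R allele, which encodes the edited form of a glutamate receptor subunit and lets mice without ADAR2 survive, so no library stands for a mouse without that allele. ADAR2 is an enzyme that converts adenosine to inosine in RNA, and the homozygous mutants came from crosses of heterozygotes, so the loss was not limited to the liver. The study names more mice per group for this liver comparison than there are libraries here, and whether a library held 1 mouse or a pool is not stated in the sources used here, so the spread between the 2 libraries of a group may be technical in part.

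Apolipoproteins are the protein part of lipoproteins, the particles that carry triglyceride and cholesterol in plasma. Apob is the scaffold of very low density lipoprotein (VLDL) made by the liver, Apoa1 and Apoa2 are the main proteins of high density lipoprotein (HDL), and the smaller exchangeable apolipoproteins move between particles and steer the enzymes and receptors that act on them. The liver makes most of them, while the intestine is the other large source of Apoa1, Apoa4 and Apob. Hepatic Apoa4 transcript is known to be higher in mouse livers that hold more triglyceride.

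Of the 10 genes, 7 lie in 2 clusters. Apoa1, Apoc3, Apoa4 and Apoa5 lie on chromosome 9 within 43340 bases, and Apoc2, Apoc1 and Apoe lie on chromosome 7 within 27610 bases. Apoa2 lies on chromosome 1, Apob on chromosome 12 and Apom on chromosome 17. All positions of genes are those of the deposited table (GRCm39). In the GENCODE M21 models the 8 genes other than Apob and Apom have between 3 and 5 exons, and in each of them 3 exons hold coding sequence. Apob has 29 exons and Apom has 6, all with coding sequence. The largest coding exon holds 85.2% of the 1185 coding bases of Apoa4 and 87.3% of the 1104 coding bases of Apoa5.

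The upstream sequences are shown for Apoa4 and Apoc2, which were lower in both HFD-KO libraries, and for Apoa1, the neighbour of Apoa4 that was not lower. They are RefSeq promoter windows on GRCm38.p6, cut where either RefSeq or GENCODE M21 places the start of the gene, and written in the direction of transcription with matched motifs in capitals.
Apoa4, chr9:46240594-46240695, plus strand, 102 bases: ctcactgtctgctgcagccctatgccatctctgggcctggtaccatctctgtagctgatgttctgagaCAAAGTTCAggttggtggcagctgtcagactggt
Apoc2, chr7:19677942-19678191, minus strand, 250 bases: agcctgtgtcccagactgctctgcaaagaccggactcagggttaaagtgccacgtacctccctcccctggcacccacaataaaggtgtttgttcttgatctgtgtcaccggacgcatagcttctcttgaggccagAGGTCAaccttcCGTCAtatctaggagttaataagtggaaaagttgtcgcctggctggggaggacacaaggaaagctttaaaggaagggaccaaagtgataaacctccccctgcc
Apoa1, chr9:46228380-46228579, plus strand, 200 bases: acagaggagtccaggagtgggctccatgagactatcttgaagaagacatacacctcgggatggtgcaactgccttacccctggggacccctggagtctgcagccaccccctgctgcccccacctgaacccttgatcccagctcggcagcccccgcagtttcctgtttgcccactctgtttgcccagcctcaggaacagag

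Searching the 250 upstream bases on both strands for 6 motifs gave few matches. The letters CAAAGTNCA, an element of the hepatocyte nuclear factor HNF4, occurred in the Apoa4 window as CAAAGTTCA from position -182 relative to the RefSeq start. GENCODE M21 places the start of Apoa4 148 bases upstream of the RefSeq start. These letters occurred in no window of the other 7 genes that the RefSeq table holds. No window was held for Apoc1 or for Apoc3, a cluster neighbour of Apoa4, so these genes were not searched. These letters were found in 1.19% of 32841 promoter windows of the same length. The motifs were chosen with the sequences in view, so the shares over all windows are no test of a match. The Apoc2 window held the nuclear receptor half-site AGGTCA, present in 14.03% of all windows, and the cAMP response half-site TGACG on the opposite strand, present in 17.8%, and both also occurred in windows of Apoa2. In the Apoa1 window none of the 6 motifs was matched letter for letter. Variants of these letters were not searched, so a window without a match may still hold a site of the same factor. The TATA box letters TATAAA occurred in 12.4% of all windows and in windows of Apoa2, Apoa5, Apob and Apoe. The forkhead element TGTTTAC occurred in 3.17% and in a window of Apoa2, and the HNF1 element in 0.0091% and in no window of these genes.

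Total counts per library ranged from 24480798 to 28691330. Values are CPM, the unit in which counts are divided by the size of the library, here adjusted by the TMM method, which scales libraries so that most genes keep the same level. At these depths 3 counts correspond to between 0.105 and 0.123 CPM on the library size without that adjustment. The lowest count of any of the 10 genes was 2478 (Apom), so counting error was at most 2.01% for Apom and at most 1.09% for the other genes. Adarb1, the gene of ADAR2, had 15.7 and 19.8 CPM in HFD-WT against 6.23 and 9.54 CPM in the HFD-KO libraries, with a log2 fold change of -1.17 (SE 0.20, adjusted p = 0.159 by edgeR), so reads were still counted in the knockout. Hepatocyte markers such as Alb, Ttr and Ahsg were abundant in every library, with a summed level of 95969 and 98283 CPM in HFD-WT against 93560 and 123426 CPM in HFD-KO. Of the 10 markers summed, 1 was higher and 0 lower at an unadjusted p under 0.05 by edgeR, where 4.25% and 4.73% of all genes tested were. Their log2 fold changes ran from -0.17 (Ass1) to 0.37 (Fgb), with a median of 0.20. In bulk liver RNA, fewer cells of a type and less RNA per cell cannot be told apart.

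Apolipoprotein transcripts made up between 5.48% and 5.75% of all counts of a library. Their summed level was 55508.5 ± 1970 CPM (SD, n = 2) in HFD-WT against 56054 ± 106 CPM in HFD-KO, a ratio of 0.01 on the log2 scale. This difference was smaller than the spread of the HFD-WT libraries, and its sign turned (-0.032) when the library size alone was used for scaling. Without Apoa4, the other 9 genes summed to 50534 ± 2839 CPM in HFD-WT against 52574 ± 526 CPM in HFD-KO.

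**Figure D1:**
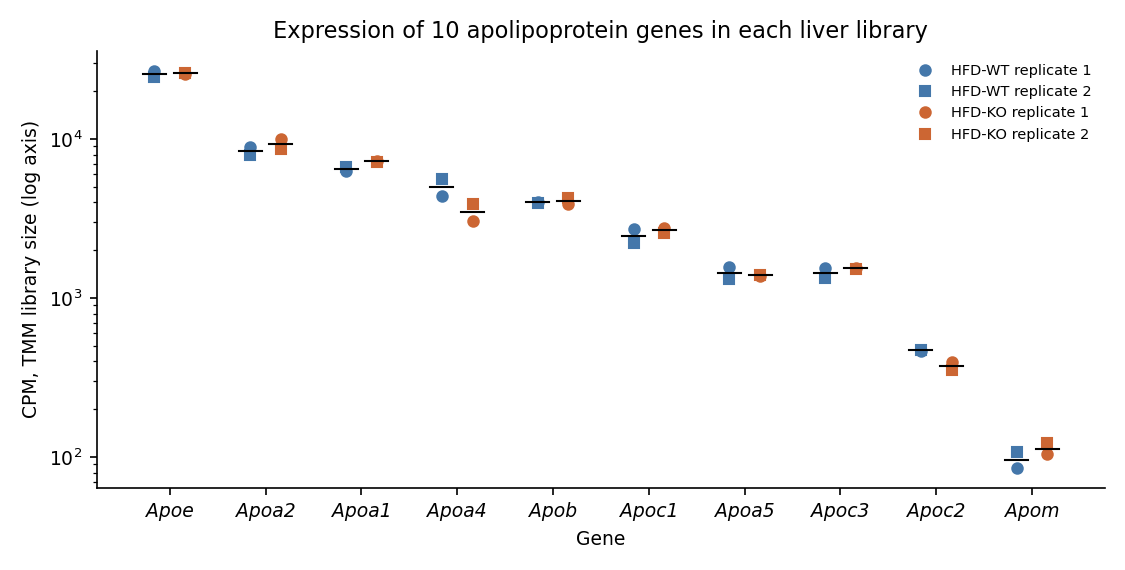
CPM of each apolipoprotein gene (log axis) in the 2 HFD-WT libraries (blue) and the 2 HFD-KO libraries (orange), with circles for replicate 1, squares for replicate 2 and a bar at each group mean. The levels span from 85.5 CPM for Apom to 26949.8 CPM for Apoe, and the HFD-KO points lie below the HFD-WT points only for Apoa4 and Apoc2.

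Levels of different genes were compared per kilobase of exon, as RPKM on the same library size. In the HFD-WT livers Apoa2 had 14483 ± 1161 RPKM (SD, n = 2) and Apoe 11872 ± 806 RPKM. Apoa1 followed with 4839 ± 219 RPKM, Apoc1 with 4116 ± 611, Apoa4 with 2533 ± 443 and Apoc3 with 1312 ± 131 RPKM. Apoc2 had 535 ± 4.3 RPKM and Apoa5 530 ± 66 RPKM, and these neighbours in the order overlapped in HFD-WT. Apob, whose transcript is by far the longest, had 266 ± 2.6 RPKM, and Apom, an HDL protein that carries sphingosine-1-phosphate, was last with 87.9 ± 13.9 RPKM. The other neighbours in this order did not overlap between their 2 libraries in either genotype. The order was the same in HFD-KO except that Apoa5, with 506 and 512 RPKM, stood above Apoc2, with 448 and 403 RPKM, without overlap. It depends on the exon length used: with the length of the principal GENCODE M21 transcript, Apoe came first in HFD-WT (18264 RPKM) before Apoa2 (16245 RPKM), and in HFD-KO Apoc3 (2927 RPKM) came before Apoa4 (1918 RPKM).

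Apoa4 encodes apolipoprotein A-IV, an exchangeable protein of chylomicrons, VLDL and HDL. The gene is ENSMUSG00000032080 on chromosome 9 from 46151994 to 46154757. Its level was 4359.7 and 5589 CPM in HFD-WT against 3033 and 3928 CPM in the HFD-KO livers. Both HFD-KO libraries lay below both HFD-WT libraries, although the gap between the nearest libraries of the groups was smaller than the gap between the 2 libraries of either group. The group means were 4975 ± 869.5 CPM (SD, n = 2) and 3481 ± 632 CPM, a fold of 0.700 and a log2 fold change of -0.52 (SE 0.18). On the CPM scale the difference of the means was -1494, and of the 12967 genes tested only Scd1, a desaturase gene with a difference of -2019 CPM, had a larger decrease of the mean. On the log2 scale the decrease was less extreme, since 556 genes (4.29% of those tested) had a lower log2 fold change. The log2 fold change was -0.32 without HFD-WT replicate 2, -0.34 without HFD-KO replicate 1, -0.69 without HFD-WT replicate 1 and -0.71 without HFD-KO replicate 2. A gene on the opposite strand that overlaps Apoa4, Gm47528, had at most 0.073 CPM in a library, under the level of 3 counts.

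Apoc2 encodes the cofactor that activates lipoprotein lipase on triglyceride-rich particles. The gene is ENSMUSG00000002992 on chromosome 7 from 19405504 to 19411866. It had 468 and 473 CPM in HFD-WT against 394 and 355 CPM in the HFD-KO livers. The 2 HFD-WT libraries were close together and both HFD-KO libraries lay below them. Group means were 470.5 ± 3.8 CPM (SD, n = 2) and 375 ± 27.9 CPM, a fold of 0.796 with a log2 fold change of -0.33 (SE 0.091) and a range from -0.41 to -0.26 when each library was left out. Apoc2 overlaps Apoc2l, a longer gene model on the same strand that starts upstream and also reaches over most of the neighbouring gene Apoc4. Apoc2l had 21.4 and 27.4 CPM in HFD-WT against 30.0 and 26.0 CPM in HFD-KO. How reads common to Apoc2l and either Apoc2 or Apoc4 were assigned is not stated. The sum of Apoc2 and Apoc2l still had a log2 ratio of -0.30.

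Among the proteins of HDL, Apoa1 activates the cholesterol-esterifying enzyme LCAT and accepts cholesterol from cells. Its level was 6263 and 6677 CPM in HFD-WT against 7327 and 7174 CPM in HFD-KO, a log2 fold change of 0.16 (SE 0.12), and it was the only one of the 10 genes with both HFD-KO libraries above both HFD-WT libraries. Apoa2 had 8892 and 7938 CPM in HFD-WT against 9944 and 8639 CPM in HFD-KO, so the groups overlapped (log2 fold change 0.14, SE 0.15). Apom had 85.5 and 107 CPM in HFD-WT against 104 and 122 CPM in HFD-KO, which overlapped as well. Its log2 fold change of 0.23 (SE 0.13) was the highest of the 10 and ranged from 0.07 to 0.41 when each library was left out.

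Apoc1, Apoc3 and Apoa5 act on the clearance of triglyceride-rich particles. Apoc3 slows it, by inhibiting lipoprotein lipase and hepatic uptake, and Apoa5 promotes it. Apoc3 had 1541 and 1337 CPM in HFD-WT against 1546 and 1533 CPM in HFD-KO (log2 fold change 0.10, SE 0.11). Apoa5 had 1575 and 1319.9 CPM in HFD-WT against 1382 and 1397 CPM in HFD-KO (log2 fold change -0.06, SE 0.12). Apoc1, which inhibits the uptake of remnant particles, had 2724 and 2206 CPM in HFD-WT against 2778 and 2563 CPM in HFD-KO (log2 fold change 0.12, SE 0.14). In each of these genes the groups overlapped, the log2 fold changes of Apoa5 and Apoc1 took both signs when each library was left out, and in each the HFD-WT libraries were spread more widely than the HFD-KO libraries.

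Apob and Apoe differed least. Apob had 4044 and 3988 CPM in HFD-WT against 3900.3 and 4245 CPM in HFD-KO, with a log2 fold change of 0.02 (SE 0.12). Apoe, the ligand that takes remnant particles to hepatic receptors, was the gene with the second highest count in every library. It had 26949.8 and 24480.4 CPM in HFD-WT against 25569 and 26174 CPM in HFD-KO, a log2 fold change of 0.0088 (SE 0.16). For both genes the HFD-KO libraries lay on either side of the HFD-WT mean, and the log2 fold change took both signs when each library was left out.

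**Figure D2:**
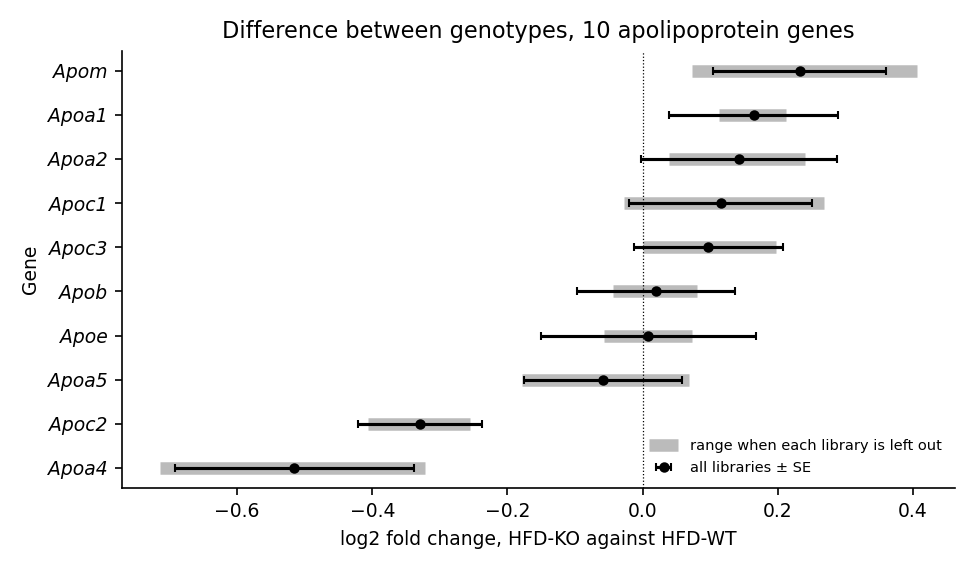
Log2 fold change between HFD-KO and HFD-WT livers for the 10 apolipoprotein genes from the edgeR fit, with bars of 1 SE and grey bands for the range when each library is left out in turn. Apoa4 (-0.52) and Apoc2 (-0.33) stand apart on the negative side, and the other 8 genes lie between -0.06 and 0.23.

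All 10 genes passed the filter on low counts. Of these, 7 had a log2 fold change above 0 and 3 below 0, and the median was 0.06, against 0.0068 for all genes tested. In the edgeR quasi-likelihood fit over 12967 genes, 0 of the 10 had an adjusted p under 0.05, where 0.0771% of all genes did, 0.054% higher and 0.0231% lower. At an unadjusted p under 0.05 there were 2 of 10, where 8.98% of all genes passed. The groups did not overlap for 3 of the 10, with 2 lower and 1 higher in HFD-KO, while among all genes tested the groups did not overlap for 40.8%, 20.3% with HFD-KO lower and 20.5% with HFD-KO higher. Because the contrast chose the genes, these counts are no test of them, and nothing is read from the counts.

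Within the chromosome 9 cluster only Apoa4 was lower in both HFD-KO libraries, between Apoc3 and Apoa5, which overlapped between the groups. The genes around the cluster were tested, since they had no part in the choice. On its Apoa1 side lies Sik3, a kinase gene, with 57.0 and 57.2 CPM in HFD-WT against 56.4 and 54.5 CPM in HFD-KO (log2 fold change -0.04, SE 0.078, adjusted p = 0.905 by edgeR). On the Apoa5 side lie Zpr1, with a log2 fold change of -0.04 (SE 0.096), and Bud13, with 0.22 (SE 0.18). In the chromosome 7 cluster, only Apoc2 of the 10 genes was lower in both HFD-KO libraries. Apoc4, which lies between Apoc2 and Apoc1 and encodes a minor VLDL protein, had 614 and 570.0 CPM in HFD-WT against 653 and 656 CPM in HFD-KO (log2 fold change 0.15, SE 0.090, adjusted p = 0.683 by edgeR). Clptm1, the nearest gene on the Apoc2 side, had a log2 fold change of -0.02 (SE 0.076), and Tomm40, the nearest on the Apoe side, had -0.17 (SE 0.082). Of the other genes tested in and around the clusters, Sik3, Clasrp, Clptm1 and Tomm40 were also lower in both HFD-KO libraries. Bud13, Relb, Apoc4, Nectin2 and Bcam were higher in both. Over all genes tested, 20.3% were lower and 20.5% higher in both HFD-KO libraries, and nothing is read from the names listed here. Of the 13 genes outside the 10 that were tested within 100 kb of the clusters, 0 passed an adjusted p of 0.05 by edgeR. At an unadjusted p under 0.05 by edgeR 1 passed, where 8.98% of all genes tested did. It was the cell adhesion gene Bcam, with a log2 fold change of 0.52 (SE 0.17, adjusted p = 0.44 by edgeR).

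**Figure D3:**
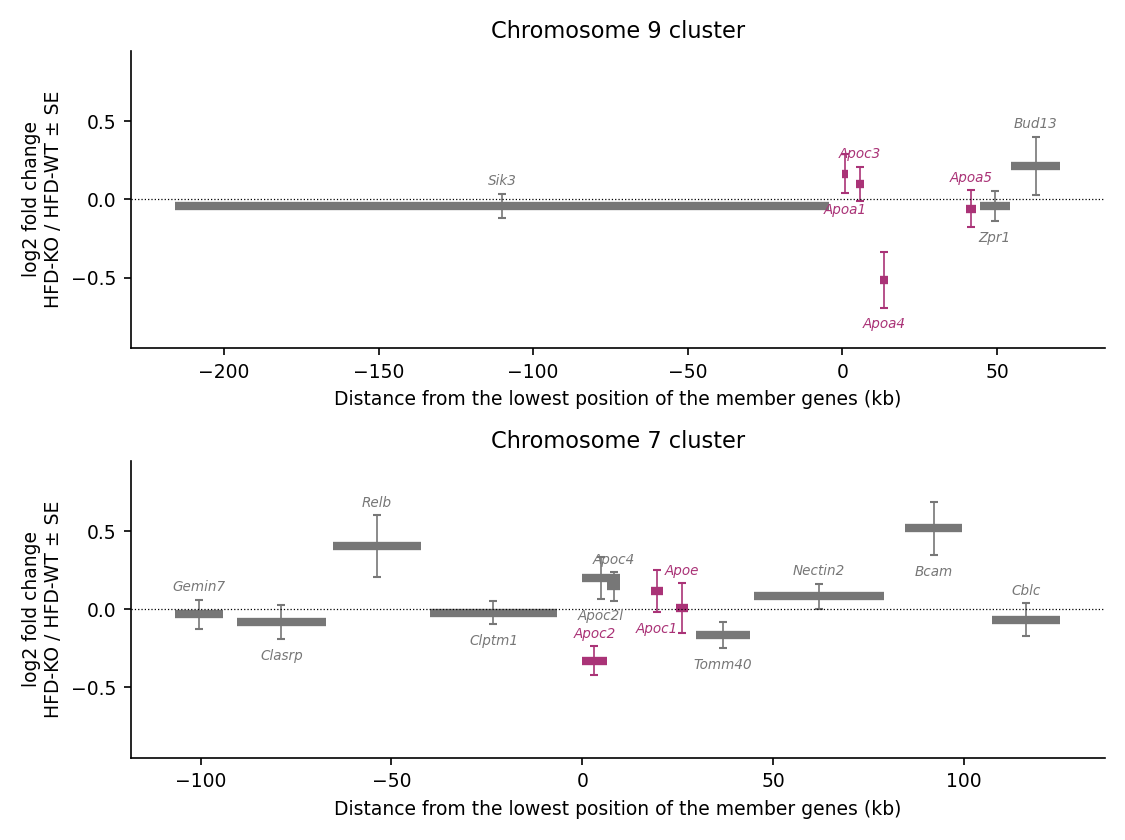
Log2 fold change with 1 SE for the genes tested in and within 100 kb of the 2 apolipoprotein clusters, each drawn as a bar over its length at its distance in kb from the lowest position of the cluster's member genes. Apolipoprotein genes of the 10 are purple and other genes grey, and Apoa4 (-0.52) and Apoc2 (-0.33) lie below their neighbours.

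Ratios of reads between genes of one library do not depend on the scaling of the libraries. Reads on Apoa4 per read on Apoa1 were 0.696 and 0.837 in HFD-WT against 0.414 and 0.547 in HFD-KO. Apoa4 was also lower in both HFD-KO libraries relative to Apob, with 1.08 and 1.40 in HFD-WT against 0.778 and 0.925 in HFD-KO. The ratio of Apoa4 to Apoa5 overlapped, however, at 2.77 and 4.23 in HFD-WT against 2.19 and 2.81 in HFD-KO. Reads on Apoc2 per read on its neighbour Apoc4 were 0.762 and 0.830 in HFD-WT against 0.603 and 0.541 in HFD-KO. Apoc2l overlaps both genes of this last pair. The contrast between the genotypes selected the genes, so ratios with Apoa4 or Apoc2 are a description and no further support. Apoa1 and Apoc4 were themselves higher in both HFD-KO libraries, which widens the gap. The log2 ratio of the group means was -0.67 for Apoa4 to Apoa1, against a log2 fold change of -0.52 for Apoa4. It was -0.48 for Apoc2 to Apoc4, against -0.33 for Apoc2. The ratios computed without Apoa4 or Apoc2 were Apoc3 to Apoa1, Apoc1 to Apoe and Apoa2 to Apoa1, and each overlapped between the groups. Apoc3 to Apoa1 was 0.246 and 0.200 in HFD-WT against 0.211 and 0.214 in HFD-KO. Apoc1 to Apoe was 0.101 and 0.0901 in HFD-WT against 0.109 and 0.0979 in HFD-KO. Other pairs without Apoa4 or Apoc2 were not compared, so the overlap is not claimed for them.

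**Figure D4:**
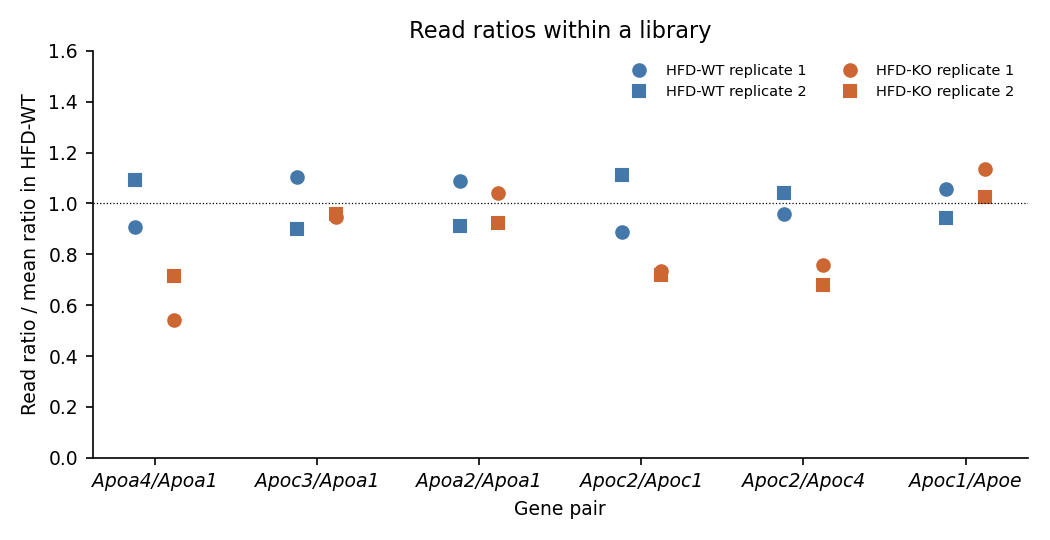
Ratio of reads on 2 apolipoprotein genes within each library, divided by the mean ratio of the HFD-WT libraries (HFD-WT blue, HFD-KO orange, circles replicate 1, squares replicate 2). The ratios with Apoa4 or Apoc2 as the first gene lie below 1 in both HFD-KO libraries, and the ratios Apoc3/Apoa1, Apoa2/Apoa1 and Apoc1/Apoe overlap between the groups.

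The pattern of Apoa4 over the 4 libraries was compared with that of 11761 other genes by the root mean square (RMS) difference of log2 CPM after centring each gene on its own mean. The median RMS difference was 0.34. Among the other 9 apolipoprotein genes Apoc2 was nearest, at 0.24, and Apoc1 was farthest, at 0.43. The nearest genes outside the 10 were Clec4n, a C-type lectin receptor of myeloid cells (0.029), Aldh18a1, an enzyme of proline synthesis (0.034), Abcb1a, a drug efflux pump (0.046), Mthfd1l, an enzyme of mitochondrial one-carbon metabolism (0.053), Frzb, a secreted Wnt inhibitor (0.054), and Ctsk, a lysosomal protease (0.055). Clec4n, for instance, had 3.28 and 4.03 CPM in HFD-WT against 2.16 and 2.85 CPM in HFD-KO. With 4 libraries such likeness is a description, and these genes had between 0.873 and 8.94 CPM, far below Apoa4.

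The partners of the apolipoproteins were taken from 8 lists with 103 genes in all, of which 102 were tested. By edgeR 0 of the 102 passed an adjusted p of 0.05, while 12 passed an unadjusted p of 0.05, 5 higher and 7 lower, where 4.25% and 4.73% of all genes tested were. The lists were chosen with earlier results of these data known. The counts of listed genes at either threshold rose when either HFD-KO library was left out, and so did the counts over all genes tested. Such a fit leaves a group without a replicate.

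Of the 16 genes of VLDL assembly and secretion, 0 passed even at an unadjusted p under 0.05, and the median log2 fold change was -0.02. The nearest to it was Tm6sf2, which helps to load lipid onto VLDL, with 19.5 and 17.6 CPM in HFD-WT against 19.9 and 26.2 CPM in HFD-KO (adjusted p = 0.567 by edgeR). Ces1d, a lipase that mobilises triglyceride for VLDL, had a log2 fold change of -0.28 (SE 0.16), Sar1b, a GTPase of the vesicles that carry VLDL out of the endoplasmic reticulum, -0.14 (SE 0.090), and Sort1, a sorting receptor, -0.14 (SE 0.10). Leaving out each library moved Tm6sf2 between 0.10 and 0.50 and Ces1d between -0.042 and -0.55, both nearest to 0 without HFD-KO replicate 2. The 6 factors of C-to-U editing of Apob mRNA, a reaction of another enzyme family than ADAR2, had log2 fold changes between -0.02 and 0.14. Their catalytic subunit Apobec1 had 13.6 and 15.1 CPM in HFD-WT against 14.1 CPM in both HFD-KO libraries, and Khsrp, Celf2 and Rbm47 had log2 fold changes of 0.10, 0.14 and 0.03, of which that of Celf2 was 0.018 without HFD-KO replicate 2.

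Of the 12 plasma lipases and modifiers, 2 were higher at an unadjusted p under 0.05 and 0 lower, with a median of 0.10. Angptl8, a feeding-induced regulator of lipoprotein lipase, had 21.8 and 24.7 CPM in HFD-WT against 33.3 and 49.8 CPM in HFD-KO, a log2 fold change of 0.83 (SE 0.18, adjusted p = 0.233 by edgeR). The log2 fold change was 0.51 without HFD-KO replicate 2, and the adjusted p was under 0.05 with DESeq2's Wald test and with no filter on low counts. Lipc, hepatic lipase, had 96.5 and 89.3 CPM in HFD-WT against 123 and 112 CPM in HFD-KO, a log2 fold change of 0.34 (SE 0.088, adjusted p = 0.332 by edgeR). Lcat, the enzyme that Apoa1 activates, had 0.17 (SE 0.095), and Pon1, an HDL-bound esterase, had 0.22 (SE 0.12), which was 0.053 without HFD-KO replicate 1.

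Receptors and uptake genes had 1 of 12 at an unadjusted p under 0.05, Mylip, a ubiquitin ligase that degrades the LDL receptor, with 22.9 and 24.9 CPM in HFD-WT against 20.4 and 17.3 CPM in HFD-KO (log2 fold change -0.34, SE 0.11, adjusted p = 0.416 by edgeR). Stab1, a scavenger receptor, Sdc1, a proteoglycan that binds remnants, and Lsr had log2 fold changes of -0.29, 0.21 and 0.15. Each rested largely on 1 library, since Stab1 was at -0.082 without HFD-WT replicate 2 and Sdc1 and Lsr were at 0.050 and 0.0094 without HFD-KO replicate 2. The median of the list was -0.03. Among 5 efflux transporters, Abcg1, which passes cholesterol to HDL, was at 11.05 and 12.8 CPM in HFD-WT against 9.91 and 8.33 CPM in HFD-KO (log2 fold change -0.38, SE 0.14, adjusted p = 0.478 by edgeR). Abca1, which loads Apoa1 with lipid, had a log2 fold change of 0.20 (SE 0.15), Abcb4 0.12 (SE 0.089) and Abcg5 -0.09 (SE 0.096), and the median was -0.04.

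Of 28 regulators of apolipoprotein transcription, 3 were higher and 1 lower at an unadjusted p under 0.05, and the median was 0.04. Nr1d1, the clock repressor REV-ERB alpha, had 82.8 and 73.3 CPM in HFD-WT against 116 and 100.2 CPM in HFD-KO, a log2 fold change of 0.47 (SE 0.11, adjusted p = 0.257 by edgeR). Nr2f2, an orphan receptor that can occupy HNF4 elements, had 30.0 and 26.3 CPM in HFD-WT against 39.8 and 34.4 CPM in HFD-KO (log2 fold change 0.40, SE 0.11, adjusted p = 0.359 by edgeR). Mlxipl, the carbohydrate response factor ChREBP, had a log2 fold change of 0.26 (SE 0.097), which was 0.16 without HFD-KO replicate 1. Onecut1 had 34.8 and 9.05 CPM in HFD-WT against 5.01 and 11.3 CPM in HFD-KO, so its log2 fold change of -1.43 (SE 0.60) rested on HFD-WT replicate 1, without which it was -0.16.

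Steatosis and lipid droplet genes had the lowest median of the 8 lists, -0.19, with 11 of 14 below 0 and 4 lower at an unadjusted p under 0.05. The median was -0.47 without HFD-KO replicate 2 and -0.14 without HFD-KO replicate 1. Cidec, a protein that fuses lipid droplets, had 97.0 and 106 CPM in HFD-WT against 50.9 and 68.0 CPM in HFD-KO, a log2 fold change of -0.77 (SE 0.14, adjusted p = 0.168 by edgeR). Plin4, a droplet coat protein, had 229 and 229.9 CPM in HFD-WT against 165 and 168 CPM in HFD-KO (log2 fold change -0.46, SE 0.077, adjusted p = 0.136 by edgeR). The other 2 were Mogat1, an enzyme of triglyceride synthesis, with -0.64 (SE 0.14), and Cd36, a fatty acid transporter, with -0.24 (SE 0.082). Apolipoprotein genes outside the 10 had a median of 0.14 over 9 genes tested, which turned to -0.14 without HFD-KO replicate 2, and 0 of them passed at an unadjusted p under 0.05. Apon and Apof, both proteins of HDL, had log2 fold changes of 0.14 (SE 0.088) and 0.12 (SE 0.086), and Saa4 had -0.29 (SE 0.16), which was -0.027 without HFD-WT replicate 2. Apod had at most 0.084 CPM in a library, under the level of 3 counts, and was not tested.

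**Figure D5:**
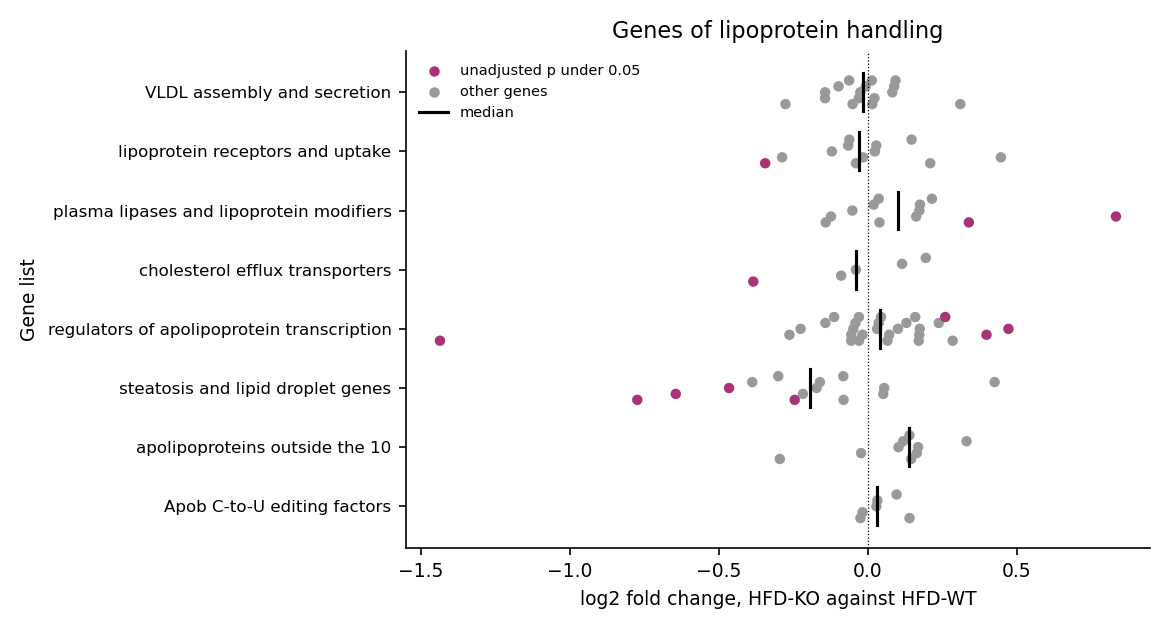
Log2 fold change between HFD-KO and HFD-WT livers for the 102 tested genes of 8 lists of lipoprotein handling, each point a gene (purple with an unadjusted p under 0.05 by edgeR, grey otherwise) and each black line the median of its list. The medians lie between -0.19 for steatosis and lipid droplet genes and 0.14 for apolipoproteins outside the 10, and the latter turned to -0.14 without HFD-KO replicate 2.

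Other cell types that make apolipoproteins were followed by their markers. Kupffer cells and macrophages make Apoe, Apoc1 and Apoc2, and 9 of their 14 markers were lower at an unadjusted p under 0.05 by edgeR, 0 of them at an adjusted p under 0.05. The summed level of these markers was 450 and 573 CPM in HFD-WT against 389 and 348 CPM in HFD-KO, and their median log2 fold change was -0.49. Their part in the lower Apoc2 level was not tested. Markers of other cell types were counted in the same way. Over all genes tested, 4.25% were higher and 4.73% lower at an unadjusted p under 0.05 by edgeR. Of 7 stellate cell markers 4 were lower at that threshold (median -0.43), and of 6 erythroid markers 3 were higher (median 0.48). Of 2 adipocyte markers tested (median 0.52) 1 was higher, Cfd. Adipoq, Lep, Plin1 and Retn had at most 4 counts in a library and were not tested. Of 5 cholangiocyte markers (median -0.18) 1 was lower, Spp1. Of 6 sinusoidal endothelial markers (median -0.0024) 1 was lower, Lyve1. In these 5 lists 0 markers had an adjusted p under 0.05 by edgeR. Intestinal RNA was followed by 11 enterocyte markers, of which Alpi, Lct, Sis, Cdx1, Cdx2 and Fabp6 had 0 reads in every library. Their summed level was 152 and 149 CPM in HFD-WT against 151 and 148 CPM in HFD-KO, most of it from Fabp2, at 119 to 127 CPM. The sums of the 10 pancreatic acinar markers stayed between 9.08 and 11.8 CPM.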

How the data were processed

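Poly(A) RNA of liver was measured in 4 libraries, 2 per genotype. Per the labels and the study's methods, the authors extracted RNA with TRIzol, used a directional MGI Tech kit, sequenced paired ends of 100 bases, aligned them with the MGI Tech tool and quantified GENCODE genes in Partek Genomics Suite. Tool versions, whether counting used strand and how reads with several alignments were handled are not given in the sources used here. The submitters' notes list the builds mm10 and GRCm39, and the methods name mm10. The positions in the table are not those of GENCODE M21 (GRCm38) and were taken as GRCm39.

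The deposited counts are whole reads per gene and were the only values tested. The deposited RPKM values served to derive exon lengths, which differed by at most 0.50% between libraries. The deposited TPM values (scaled by the authors to a fixed sum) were not used. The deposited CPM column is a score on an adjusted library size and was not used, and CPM given here was computed from the counts.

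edgeR 4.0.16 in R 4.3.3 (filterByExpr, TMM, quasi-likelihood test, two-sided, Benjamini-Hochberg adjustment) was fitted to all genes, and 12967 were tested. Called genes had an adjusted p under 0.05. With 2 against 2 libraries the smallest exact two-sided permutation p is 0.333, so tests rest on the spread shared across genes. The procedure was tested on simulated data. Alternatives were DESeq2 1.42.0, other scalings, no filter, a replicate block and leaving out each library. Intervals given for depth cover counting error only.

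The members and lists were chosen with earlier results of these data known. Genes named were the 10 members, Adarb1, up to 4 genes per list with the smallest p, genes within 100 kb of the 2 clusters, and the 6 genes nearest to Apoa4 with a mean of at least 1 CPM. Scd1 and the markers were named after their values were seen, and the motifs were chosen with the sequences in view. RefSeq promoter windows were held for 8 of the 10 genes.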

Additional observations from a re-analysis of the deposited data

How the results depend on the processing

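Apoa4 and Apoc2 were lower in HFD-KO under all 10 alternatives, with log2 fold changes from -0.71 to -0.32 and from -0.41 to -0.26. For both genes each HFD-KO library lay below each HFD-WT library, so leaving out a library could hardly turn the sign. The alternatives refit the same 4 libraries whose contrast chose the genes, so the kept sign is no further support. The median over the 10 genes ranged from -0.01 to 0.07. The ratio of their summed CPM was -0.032 on the log2 scale with the library size alone, and ranged from -0.020 to 0.045 when each library was left out. That scaling moved all genes by a median of -0.05. The number of genes with an adjusted p under 0.05 depended on the fit. It was 7 higher and 3 lower in the main comparison, 81 and 81 with no filter on low counts, 56 and 61 with DESeq2's Wald test, and 4 higher with the library size alone. When each library was left out it ranged from 0 (without HFD-WT replicate 2) to 376 higher and 329 lower (without HFD-KO replicate 1), and without HFD-KO replicate 2 it was 226 and 185. Listed genes with an adjusted p under 0.05 numbered 5 with no filter and 4 with DESeq2's Wald test (Angptl8, Cidec, Nr1d1 and Plin4), and from 0 to 18 over the fits that left out a library. At an unadjusted p under 0.05 they numbered 20 with no filter and between 7 and 32. The cause of these moves was not tested. The 2 HFD-KO libraries were less alike than the 2 HFD-WT libraries. The chi-square of the counts of a pair, per degree of freedom, was 43.4 over 12859 genes in HFD-KO. In HFD-WT it was 10.9 over 12935 genes.

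With the replicate block there were 12 higher and 8 lower genes. The labels give both groups the same replicate numbers without saying that they pair libraries, and the deviations of same-numbered libraries had a correlation of -0.099 over 10548 genes, so the block was not used in the main comparison. Differences near 0 changed sign when each library was left out, also for 4 of the 10 genes, with Apoa5 from -0.18 to 0.068, Apob from -0.043 to 0.081, Apoc1 from -0.027 to 0.27 and Apoe from -0.057 to 0.074. So did the medians of 4 lists, from -0.11 to 0.032 for efflux transporters, -0.0024 to 0.074 for regulators, -0.0050 to 0.083 for editing factors and -0.14 to 0.19 for apolipoproteins outside the 10. The medians of regulators (-0.0044) and editing factors (-0.016) were also below 0 with the library size alone. Leaving out each library gave Abca1 from -0.077 (without HFD-KO replicate 2) to 0.43, Abcg5 from -0.18 to 0.0046 (without HFD-WT replicate 1), Apobec1 from -0.10 to 0.052 (without HFD-WT replicate 2) and Rbm47 from -0.026 (without HFD-KO replicate 1) to 0.089. Rbm47 was at -0.013 with the library size alone. The ratio of the per-length levels of Apoa2 and Apoe in HFD-WT was 1.22, and 0.889 with the length of the principal transcript, an alternative chosen after seeing the data.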
